A study of Rattus norvegicus with 20 samples.

Results

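The same 4 animals gave the comparison described here, which set the injured segment of the rat cervical spinal cord, the lesion epicenter, against the cord just rostral to it. Its members were the 8 libraries of these 2 regions among the 20 libraries of the series, 4 from the epicenter at cervical level 4 (C4) and 4 from the rostral cord at about C2 to C4, and each animal gave 1 library of each region. All 4 rats were adult female Long-Evans rats of 6 to 8 months that carried a unilateral incomplete C4 contusion, made by a displacement of 0.7 mm, and an electrode array implanted into the motor cortex opposite the lesion 2 weeks after the injury. The wires were tested with current pulses 1 week after implantation to find the threshold for forelimb movement. In 2 of the rats, called stimulated, the cortex was then stimulated electrically for 1 week. This was done for 5 hours a day at 10 Hz and 80% of the movement threshold, in cycles of 5 minutes on and 2 minutes off. The paper's methods give 5 days of stimulation. The other 2, called control, were handled alike but did not receive this week of stimulation. Each region therefore held 2 stimulated and 2 control animals, no animal was uninjured, and the rostral cord is injured-animal tissue away from the impact rather than a healthy reference. The regions contained both gray and white matter. The third cord region, caudal to the lesion, is given beside the others because position along the cord and distance from the lesion cannot be told apart between the epicenter and the rostral cord alone.

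A contusion kills neurons and glia at the impact site and opens the vessels there. Resident microglia and blood-derived macrophages then clear the dead cells and the lipid-rich myelin, and become loaded with lipid and lysosomes. Reactive astrocytes form a border around the damage, fibroblasts and Schwann cells can enter it, and neurons of the gray matter at that level are lost. In bulk tissue, fewer cells of a type and less RNA per cell cannot be told apart, and every level below is such a mixture. Levels are FPKM, fragments scaled by the length of the transcript and by the number mapped in the library, and the lowest value in the table is 0.1, so a gene at 0.1 was at or under that floor. Where values are given for each library, the order is control animals 1 and 2, then stimulated animals 1 and 2. Log2 fold changes are epicenter over rostral cord within the same animal, from 4 animals, with limma's moderated standard error (SE) and adjusted p. This SE draws the spread of each gene toward that of genes of like level, so that for very abundant genes it can exceed the spread of the 4 differences themselves.

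The 8 libraries carried the markers of cord tissue. The neuronal gene Snap25, which encodes a protein of the synaptic release machinery, was at 571, 714, 613 and 549 FPKM rostrally and the myelin gene Mbp at 4806, 3836, 4735 and 4279.9. Genes at 1 FPKM or more numbered 13109 to 13319 in the rostral libraries and 13274 to 13496 in the epicenter libraries, and the rise in all 4 animals gave p = 0.125 in a two-sided exact swap test, the smallest value 4 pairs allow. Log2 levels correlated across genes at 0.981 to 0.986 between rostral libraries and at 0.968 to 0.982 between epicenter libraries. A pair of libraries stood apart. The rostral library of control animal 2 held high levels of several neuronal genes that were low elsewhere. The epicenter library of stimulated animal 2 had the lowest level of the 4 in all 25 phagocyte genes described below, and the caudal library of the same animal the highest in 21 of them. Each fit with 1 animal left out had 3 animals, and of the 216 named genes that passed, 60, 59, 74 and 27 no longer did without control animals 1 and 2 and stimulated animals 1 and 2. Counts of a list with 1 animal left out are given in this order where they moved by over 1.5 times.

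Of 15210 genes tested, 4512 (29.7%) differed between the epicenter and the rostral cord, 2351 higher (15.5%) and 2161 lower (14.2%) at the epicenter. The rises were larger than the falls. Among the genes that differed by at least 2-fold, 696 were higher and 89 lower, and at 4-fold there were 123 higher and 6 lower. The median log2 fold change was 0.67 over the genes that rose and -0.51 over those that fell, against -0.02 over all genes tested. Of the 4512 genes, 4507 moved in the same direction in all 4 animals. The 4 epicenter and the 4 rostral values did not overlap in 4377 genes (28.8%), 1983 with the epicenter above (13%) and 2394 with it below (15.7%). The count was sensitive to the animals entered: it was 2027 without control animal 1, 2234 without control animal 2, 2036 without stimulated animal 1 and 3388 without stimulated animal 2. Across genes, the within-animal differences correlated between animals at 0.542 to 0.718.

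**Figure D1:**
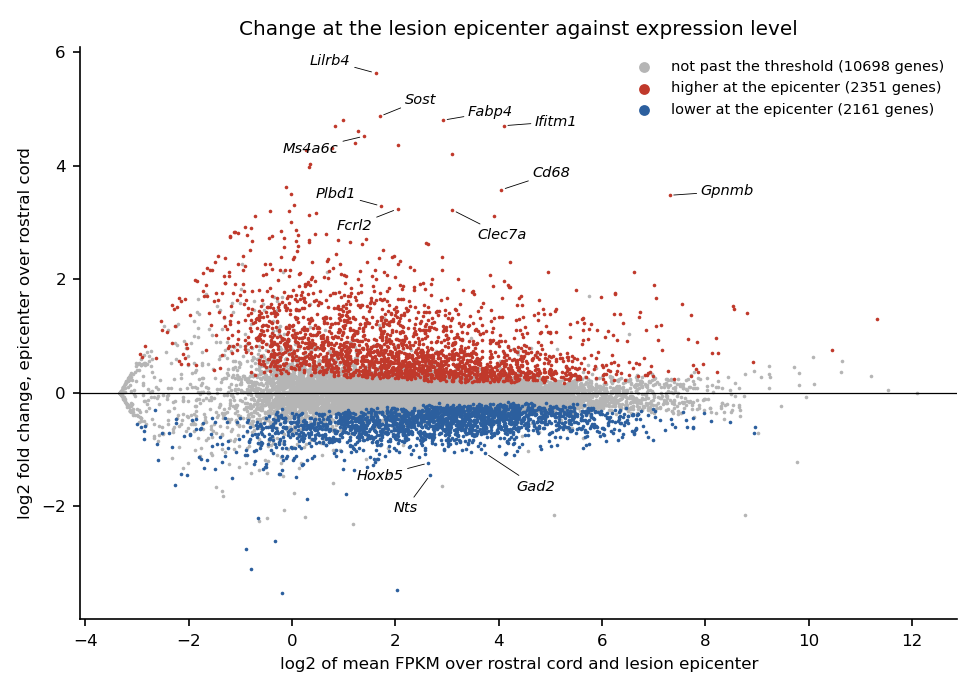
Log2 fold change of the lesion epicenter over the rostral cord (y axis) against the log2 of the mean FPKM over both regions (x axis), 1 point per gene tested, with red for genes higher, blue for genes lower and gray for genes not past an adjusted p of 0.05. The 123 genes raised at least 4-fold lie above a y value of 2, whereas only 6 genes that fell lie below -2.

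The 10 largest rises included Gpnmb, Cd68, Fabp4 and Clec7a of the list of phagocyte genes described below. Gpnmb, a lysosome-associated membrane glycoprotein of lipid-laden macrophages, was at 30.96, 17.4, 31.9 and 18.3 FPKM in the rostral cord and at 434, 322, 293 and 119.7 FPKM at the epicenter (log2 fold change 3.48, SE 0.26, adjusted p = 0.0048). The ranges were far apart, and the epicenter value of stimulated animal 2 was the lowest of the 4. Cd68, a lysosomal glycoprotein used as a macrophage marker, went from 2.75, 1.61, 3.31 and 2.07 to 45.2, 32.6, 31.9 and 13.1 FPKM (log2 fold change 3.58, SE 0.29, adjusted p = 0.0048). Fabp4, a fatty acid carrier of macrophages and fat cells, was under 1 FPKM in every rostral library and reached 26.7, 17.8, 9.86 and 4.46 FPKM at the epicenter (log2 fold change 4.80, SE 0.54, adjusted p = 0.0068). Lilrb4, an inhibitory receptor of myeloid cells, stood at the floor of 0.1 FPKM in all 4 rostral libraries and at 10.4, 7.73, 4.18 and 1.83 FPKM at the epicenter, so that its mean was at least 60.3-fold higher. In each of these 4 genes the epicenter levels were ordered alike at both ends, with control animal 1 highest and stimulated animal 2 lowest.

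Further large rises were found for Ms4a6c and Plbd1, myeloid genes, for Fcrl2, a gene of the Fc receptor-like family, and for Clec7a, the receptor for fungal glucans that marks phagocytic microglia. Their log2 fold changes were 4.52, 3.29, 3.24 and 3.22. Ifitm1, an interferon-induced membrane protein, was at 1.48, 0.818, 0.802 and 1.27 FPKM rostrally and at 53.99, 46.9, 21.04 and 10.8 FPKM at the epicenter (log2 fold change 4.71, SE 0.45, adjusted p = 0.0054). Sost, which encodes the secreted Wnt inhibitor sclerostin and is best known from bone, was at 0.278, 0.164, 0.275 and 0.1 FPKM rostrally and at 9.04, 7.96, 6.07 and 2.12 FPKM at the epicenter (log2 fold change 4.87, SE 0.23, adjusted p = 0.0048). The groups did not overlap in any of the 10 genes with the largest rises. These genes were picked for large rises shared by all animals. Their separation therefore follows largely from the choice and is no further evidence.

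All 25 tested genes of a list for phagocytes and foam cells rose, with a median log2 fold change of 1.70, where 15.5% of all genes tested did and the median of all was -0.02. This list, like the others, was chosen with earlier results of these data known, so the contrast with all genes is a description only. With 1 animal left out, between 18 and 24 of the 25 still passed. The list held the receptor pair Trem2 and Tyrobp, which signals phagocytosis of lipid and debris, at 1.70 and 1.69, and the scavenger receptors Msr1 and Cd36 at 3.31 and 2.68. Apoe, the main lipoprotein of the nervous system and the most abundant member, rose from a mean of 1447 to 3677 FPKM (log2 fold change 1.29, SE 0.30, adjusted p = 0.03). This call was lost in each fit with 1 animal left out (adjusted p = 0.053 to 0.16) and with quantile normalization, where the log2 fold change was 0.67. Among 16 alternative settings Apoe passed in 7, and its sign held in each. Lgals3, a galectin of activated phagocytes, was at 74.7, 42.5, 54.98 and 44.1 FPKM rostrally and at 271, 208, 215 and 123 FPKM at the epicenter (log2 fold change 1.90, SE 0.14, adjusted p = 0.0048). Igf1, a growth factor made by activated microglia and macrophages, rose by 2.31 on the log2 scale. Abca1 and Abcg1, which export cholesterol from cells, rose as well, with log2 fold changes of 2.12 (SE 0.15) and 0.70 (SE 0.12).

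Lysosomal genes rose with them, 19 of 21 tested and none lower, with a median of 1.11. Ctsk, the collagen-degrading cathepsin of osteoclasts and macrophages, was at 2.88, 2.58, 3.08 and 2.67 FPKM rostrally and at 44.5, 31.97, 21.6 and 11.4 FPKM at the epicenter (log2 fold change 3.12, SE 0.32, adjusted p = 0.0059). The abundant proteases Ctsd and Ctsb rose to means of 560.4 and 659 FPKM from 196 and 239. The 2 members that did not pass were Psap (log2 fold change 0.47, adjusted p = 0.074) and Cst3, the most abundant of the list (log2 fold change 0.30, adjusted p = 0.42).

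All 11 tested genes of homeostatic microglia were also higher at the epicenter, with smaller changes (median 0.72), and 9, 8, 7 and 10 passed with 1 animal left out. Csf1r, the receptor that microglia and macrophages need to survive, rose by 1.21 on the log2 scale. P2ry12, the ADP receptor of resting microglia, was at 21.96, 15.6, 19.4 and 13.03 FPKM rostrally and at 32.5, 26.1, 31.8 and 19.3 FPKM at the epicenter, ranges that overlapped, although each animal was higher at the epicenter (log2 fold change 0.64, SE 0.05, adjusted p = 0.0048). Tmem119, another microglial marker, had a log2 fold change of 0.47 (SE 0.08).

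**Figure D2:**
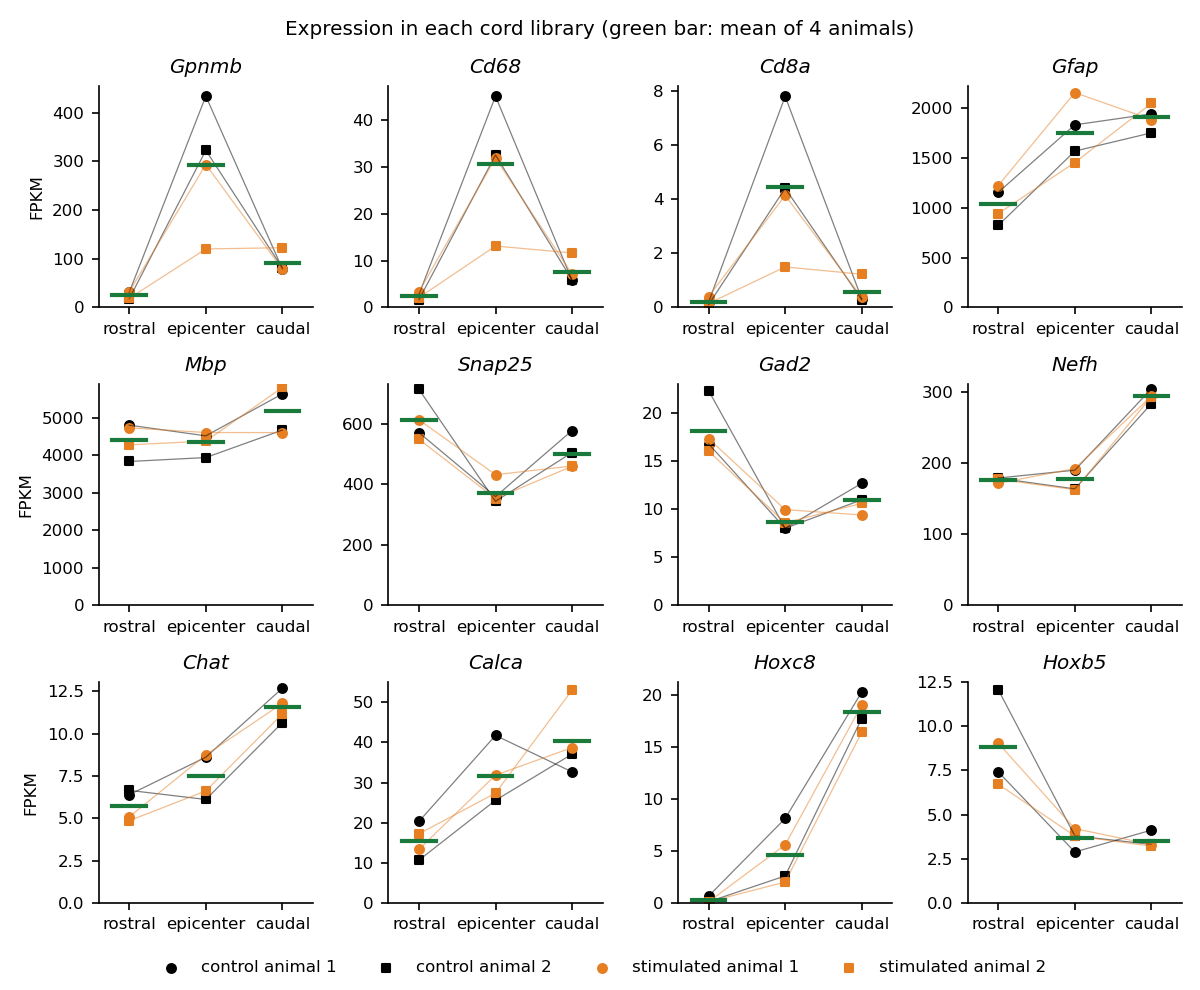
FPKM (y axis, linear from 0) of 12 genes in the rostral cord, lesion epicenter and caudal cord of each of the 4 animals, with black for control, orange for stimulated, lines joining libraries of 1 animal and green bars for the mean. The means of Gpnmb, Cd68 and Cd8a peak at the epicenter, though Gpnmb of stimulated animal 2 is slightly higher caudally. Snap25 and Gad2 are lowest at the epicenter. Mbp lies within overlapping ranges in rostral cord and epicenter, and Hoxc8 and Chat are highest in the caudal cord.

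Complement genes, which tag cells and synapses for removal, rose in 15 of 18 tested (median 1.39). The C1q subunits C1qa, C1qb and C1qc had log2 fold changes of 1.67, 1.75 and 1.82, and C2 rose most, from a mean of 5.24 to 23.4 FPKM. C3, the central component, changed less (log2 fold change 0.84, SE 0.10, adjusted p = 0.007). The surface inhibitors Cd55 and Cd59 did not pass, at 0.20 and 0.13. C4a and C4b are near-identical copies, so their split is uncertain. Of the genes for antigen presentation, 11 of 15 tested rose (median 0.89; 9, 9, 7 and 12 with 1 animal left out). The class I genes RT1-A2 and B2m had log2 fold changes of 1.33 and 0.89 and the class II chaperone Cd74 one of 0.57. The RT1 genes resemble one another closely, which makes their individual values uncertain.

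Interferon-induced genes rose in 17 of 19 tested, none fell, and the median was 1.08. The count was 13, 13, 10 and 19 with 1 animal left out. Mx1 and Rsad2, both antiviral effectors, rose by 2.12 and 1.89 on the log2 scale, from means of 1.27 and 1.27 FPKM, and Irf7, a transcription factor of the response, had a log2 fold change of 1.59 (SE 0.16). These genes are switched on through a DNA element, the interferon-stimulated response element. Its core was searched as GAAANNGAAA or, on the other strand, TTTCNNTTTC, in the 250 bases before the start of each gene in RefSeq (rat assembly GRCr8). It was found for 10 of the 14 genes of this list matched to promoters and in 3.41% of the 33469 promoters of that length. The first share counts genes, the second single promoters. The list and the motif were chosen after the values were seen, and a match is a description of letters only. Of these promoters, 3 are shown, 5′ to 3′ on the strand of the gene, since they belong to the members described above and to Gbp2, a guanylate-binding protein with a log2 fold change of 1.33, and the capitals mark the core.
Rsad2 (chr6:48788121-48788370, minus strand): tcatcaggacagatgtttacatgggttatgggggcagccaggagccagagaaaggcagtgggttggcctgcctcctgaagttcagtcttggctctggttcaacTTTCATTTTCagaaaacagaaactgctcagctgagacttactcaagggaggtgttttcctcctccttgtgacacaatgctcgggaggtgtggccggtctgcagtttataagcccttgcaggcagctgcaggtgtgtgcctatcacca
Irf7 (chr1:205800024-205800273, minus strand): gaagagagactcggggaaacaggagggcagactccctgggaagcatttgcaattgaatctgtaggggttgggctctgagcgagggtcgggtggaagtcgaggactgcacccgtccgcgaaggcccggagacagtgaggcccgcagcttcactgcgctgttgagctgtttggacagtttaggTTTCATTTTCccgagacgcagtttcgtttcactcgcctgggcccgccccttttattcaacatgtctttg
Gbp2 (chr2:234005477-234005726, plus strand): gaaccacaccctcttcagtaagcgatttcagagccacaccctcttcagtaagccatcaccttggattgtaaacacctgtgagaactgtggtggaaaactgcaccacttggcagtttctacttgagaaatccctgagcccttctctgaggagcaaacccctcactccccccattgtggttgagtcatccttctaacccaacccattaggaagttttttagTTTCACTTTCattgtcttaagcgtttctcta
In all of them the core read as TTTCNNTTTC on the strand of the gene, and it began 147, 69 and 31 bases before the start for Rsad2, Irf7 and Gbp2.

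A search of the same kind was made for the phagocyte and lysosomal genes, with elements bound by transcription factors of the MITF and TFEB family, on both strands. The M-box was searched as TCACATG or its reverse complement. It was found for 3 of 17 matched phagocyte genes, Gpnmb, Cd68 and Mrc1, and in 3.36% of all promoters. The CLEAR core, searched in the same way as TCACGTG, was found for 3 of 17 matched lysosomal genes, Cstb, Ctsd and Lamp1. It was in 2.79% of all promoters. The promoters of Gpnmb and Cd68 are shown, with the M-box in capitals, because both are among the 10 largest rises.
Gpnmb (chr4:79340878-79341127, plus strand): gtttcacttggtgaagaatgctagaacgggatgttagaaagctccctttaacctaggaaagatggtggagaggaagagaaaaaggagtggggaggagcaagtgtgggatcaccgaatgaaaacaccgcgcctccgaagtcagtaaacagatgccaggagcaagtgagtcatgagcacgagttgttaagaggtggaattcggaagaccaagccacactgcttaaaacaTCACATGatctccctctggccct
Cd68 (chr10:54882442-54882691, minus strand): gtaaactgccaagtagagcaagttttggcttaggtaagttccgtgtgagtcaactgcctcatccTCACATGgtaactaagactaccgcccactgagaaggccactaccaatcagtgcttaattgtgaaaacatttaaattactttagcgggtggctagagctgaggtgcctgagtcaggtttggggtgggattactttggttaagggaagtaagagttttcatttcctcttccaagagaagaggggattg
The M-box began 23 bases before the start of Gpnmb and 186 bases before that of Cd68.

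Chemokines and cytokines were mostly low but rose in 18 of 24 tested (median 1.08), or in 11, 12, 12 and 16 with 1 animal left out. Ccl2, Ccl3, Ccl4 and Ccl7, which attract monocytes, had log2 fold changes of 1.92, 2.05, 2.15 and 2.16, with epicenter means of 1.89, 2.47, 2.68 and 0.559 FPKM. Cxcl14 was the most abundant member and rose from a mean of 44.7 to 88.7 FPKM. Cx3cl1, the neuronal ligand of the microglial receptor Cx3cr1, was the 1 member that fell (log2 fold change -0.40, SE 0.07, adjusted p = 0.017), while Cx3cr1 rose by 0.89. With 1 animal left out, 0, 0, 1 and 0 members of the list fell.

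Lymphocyte genes gave a divided picture. Cd8a was at 0.192, 0.1, 0.396 and 0.140 FPKM rostrally and at 7.82, 4.41, 4.15 and 1.49 FPKM at the epicenter (log2 fold change 4.40, SE 0.45, adjusted p = 0.0058), and Cd8b at 0.137, 0.1, 0.106 and 0.1 and 3.39, 2.13, 2.49 and 1.16 FPKM (log2 fold change 4.28, SE 0.21, adjusted p = 0.0048). Neither overlapped between the regions. The defining T cell genes Cd3d and Cd3e were nevertheless at the floor of 0.1 FPKM in all 8 libraries, and of 8 tested genes of T and B cells only the Cd8 pair passed. Cd4, which rat macrophages also carry on their surface and which was named here after its values were seen, was at 9.93, 1.17, 6.64 and 3.41 FPKM rostrally and at 32.98, 6.53, 20.99 and 8.14 FPKM at the epicenter (log2 fold change 1.78, SE 0.20, adjusted p = 0.0069). It was higher at the epicenter in each animal but differed so much between animals that the regions overlapped.

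Of 7 tested neutrophil genes, Mmp8 and Csf3r rose (log2 fold changes 2.24 and 1.36), where 15.5% of all genes tested did. Mmp8 was near the floor, at 0.1, 0.212, 0.297 and 0.147 FPKM rostrally and at 1.04, 0.979, 1.10 and 0.410 FPKM at the epicenter. Its log2 fold change was 0.047 in the setting that gave the smallest value. S100a8 and S100a9 of the same list did not pass, with log2 fold changes of -0.92 and -0.92. Without stimulated animal 1, 3 neutrophil genes were lower, S100a9 among them (log2 fold change -1.61, adjusted p = 0.04), and the median of the list went from -0.30 to -1.08. None of 7 erythrocyte genes passed in all 4 animals (median -0.69), but 6 were lower without stimulated animal 1 (median -1.19). Hbb, a hemoglobin beta gene whose near-identical copies make its value uncertain, was at 11.8, 25.98, 37.1 and 15.8 FPKM rostrally and at 5.96, 10.4, 61.9 and 5.53 FPKM at the epicenter, where the library of stimulated animal 1 stood far above the others. Genes for the handling of iron and heme rose in 5 of 13 tested, where 15.5% of all genes tested did. Hmox1, which breaks down heme, Ftl1, the ferritin light chain, and Cd163, the scavenger receptor for hemoglobin, had log2 fold changes of 1.79, 1.56 and 1.11.

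**Figure D3:**
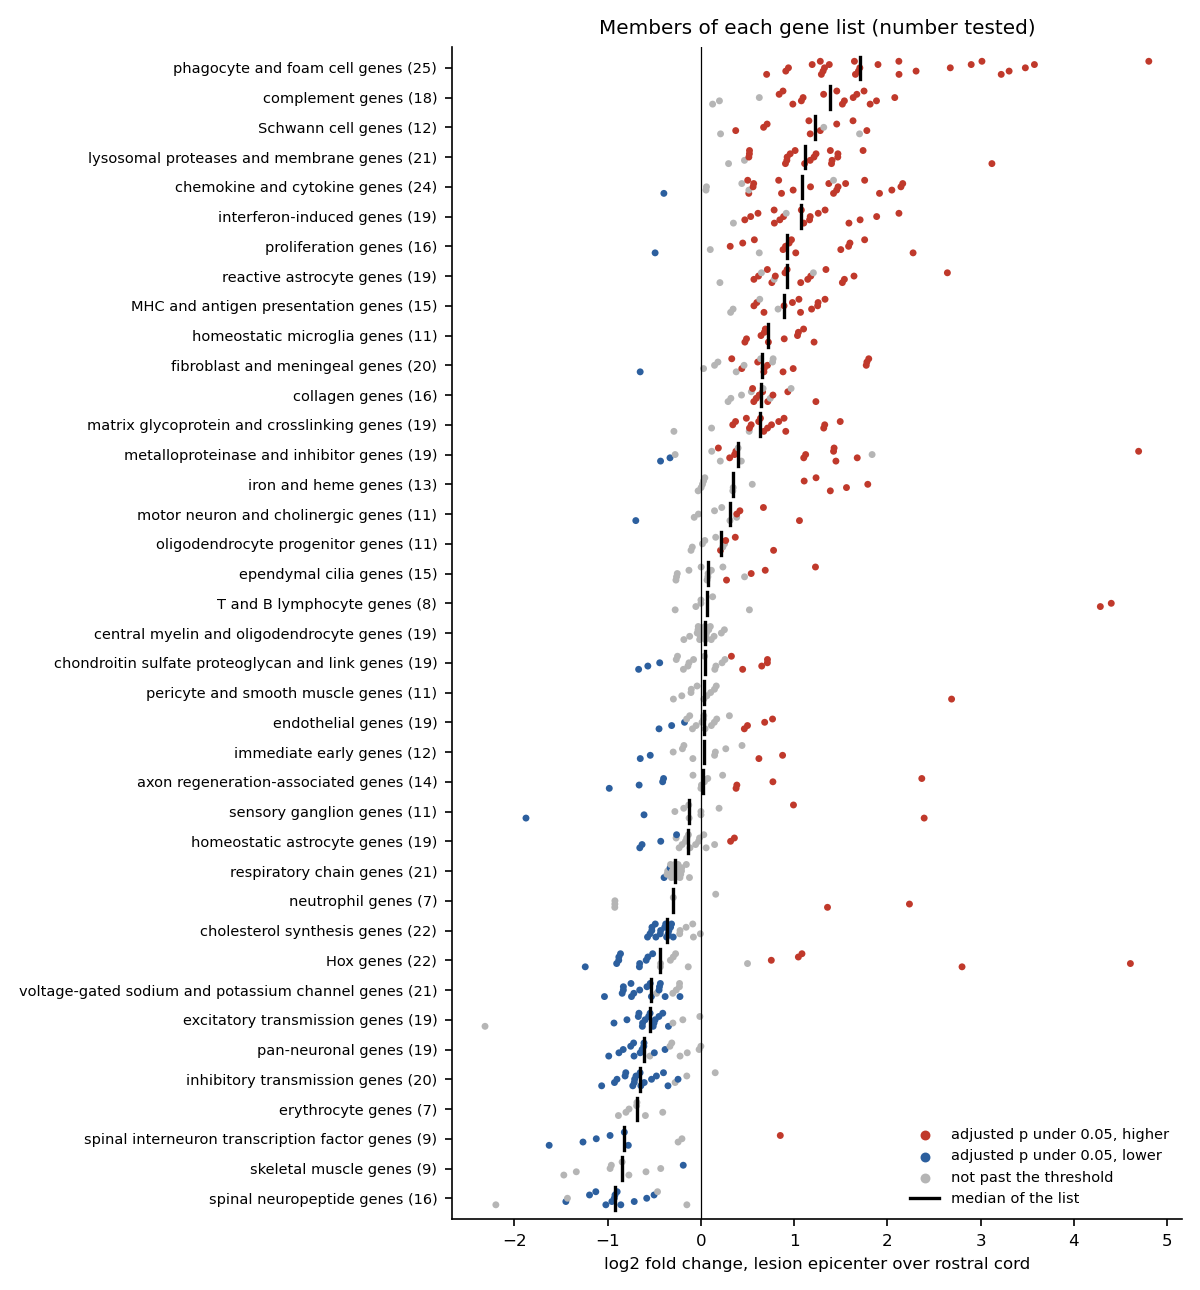
Log2 fold change of the lesion epicenter over the rostral cord (x axis) for each tested member of 39 gene lists (y axis, ordered by the median, with the number tested in brackets), with red and blue for members past an adjusted p of 0.05 and black bars for the medians. The lists run from phagocyte genes, with a median of 1.70, to spinal neuropeptide genes, with a median of -0.93.

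Genes of reactive astrocytes rose in 15 of 19 tested (median 0.92), or in 9, 9, 9 and 15 with 1 animal left out. Gfap, the intermediate filament of astrocytes, was at 1157, 823, 1225 and 943 FPKM rostrally and at 1836, 1571, 2159 and 1456 FPKM at the epicenter, without overlap (log2 fold change 0.76, SE 0.19, adjusted p = 0.036). It too lost its call in each fit with 1 animal left out (adjusted p = 0.089 to 0.18), and without the block (0.054) and with quantile normalization (0.095), where the log2 fold change was 0.33. Among 16 alternative settings Gfap passed in 4, with a limma adjusted p as low as 0.00012, and its sign held in each. Vim, another intermediate filament, rose from a mean of 80.7 to 184 FPKM and Cd44, a hyaluronan receptor, from 18.05 to 38.1 FPKM, with log2 fold changes of 1.18 and 1.07. Lcn2 did not pass (log2 fold change 1.21, adjusted p = 0.055). Of 19 genes of homeostatic astrocytes 2 rose and 4 fell (median -0.13), near the shares over all genes tested, and with 1 animal left out 0, 0, 0 and 1 rose and 2, 2, 1 and 3 fell. The water channel Aqp4 and Mlc1 rose by 0.36 and 0.32 on the log2 scale, whereas the GABA transporter Slc6a11, the amino acid transporter Slc7a10, the connexin gene Gjb6 and the receptor gene Fgfr3 fell, with log2 fold changes of -0.66, -0.63, -0.43 and -0.26.

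Matrix genes rose less than phagocyte genes. Of 19 matrix glycoprotein and crosslinking genes, 16 rose (median 0.64), of 16 collagen genes 9 rose (median 0.64), and of 20 fibroblast and meningeal genes 11 rose and 1 fell (median 0.66). With 1 animal left out, 8, 8, 9 and 17 of the glycoprotein genes and 6, 7, 5 and 11 of the fibroblast genes rose. Tnc, the tenascin of wounds, and the crosslinking enzymes Lox and Loxl2 had log2 fold changes of 1.49, 1.32 and 1.33. Col1a1 and Col3a1, the fibrillar collagens of scars, were at means of 11.4 and 14.7 FPKM at the epicenter against 7.06 and 7.34 rostrally, and only Col1a1 passed (adjusted p = 0.031 against 0.073). The collagen count rested on the animals entered: 1, 2 and 0 collagen genes passed without control animal 1, control animal 2 and stimulated animal 1, and 13 passed without stimulated animal 2. The 1 fibroblast-list gene that fell was Thy1 (log2 fold change -0.65), which neurons also express at high levels.

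Among matrix-degrading enzymes and their inhibitors, 11 of 19 rose and 2 fell (7, 7, 7 and 11 rose and 1 fell with 1 animal left out). Mmp12, the macrophage elastase, was at the floor in all 4 rostral libraries and at 7.78, 3.37, 1.54 and 1.12 FPKM at the epicenter, a mean at least 34.5-fold higher, and in the caudal cord only stimulated animal 2 was above the floor. Mmp2, Mmp14 and Mmp19 had log2 fold changes of 1.45, 1.12 and 1.43, and the inhibitor Timp1 one of 1.54. The inhibitor Timp4 and the membrane-type protease Mmp24 fell by 0.43 and 0.33 on the log2 scale. Genes of chondroitin sulfate proteoglycans, matrix molecules that restrain axon growth, went both ways, 5 higher and 3 lower of 19. Over all genes tested these shares were 15.5% and 14.2%. With 1 animal left out, 5, 1, 2 and 3 were higher and 2, 1, 1 and 1 lower. The core proteins Cspg4, Ncan and Vcan rose (0.71, 0.71 and 0.45), as did Chsy1, a chondroitin synthase, and Tnr, while Cspg5 and the link proteins Hapln1 and Hapln4, which tie aggrecan-type proteoglycans to hyaluronan around neurons, fell (-0.44, -0.67 and -0.57). Acan, the aggrecan core protein, did not pass (log2 fold change -0.25, adjusted p = 0.11).

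Schwann cell genes, which mark peripheral myelin, rose in 9 of 12 tested (median 1.23). Egr2 and Ncmap had log2 fold changes of 1.63 and 1.78. Pmp22 was at 45.8, 38.8, 47.01 and 50.8 FPKM rostrally and at 82.5, 80.1, 79.2 and 57.96 FPKM at the epicenter (log2 fold change 0.71, SE 0.15, adjusted p = 0.024). The groups did not overlap, and stimulated animal 2 had the highest rostral and the lowest epicenter value. The list count fell to 2 without control animal 1 or stimulated animal 1 and to 4 without control animal 2. Whether nerve roots kept with the tissue had a part in these levels was not tested. Of 11 tested markers of sensory ganglia 2 rose and 2 fell, where 15.5% and 14.2% of all genes tested did. Fxyd2, a regulatory subunit of the sodium pump, was at 2.14, 1.51, 0.407 and 1.01 FPKM rostrally, 10.1, 8.06, 4.51 and 2.77 FPKM at the epicenter and 1.76, 4.82, 8.95 and 19.8 FPKM caudally (log2 fold change 2.39, SE 0.33, adjusted p = 0.009), without overlap between the first 2 regions. Mrgprx3 rose by 0.99 on the log2 scale, and the sodium channel gene Scn9a and the transcription factor gene Pou4f1 fell (log2 fold changes -0.61 and -1.88). Of this list 1, 1, 1 and 2 rose and 0, 1, 1 and 0 fell with 1 animal left out. The defining channel genes Scn10a and Scn11a were at the floor in all 8 libraries, and Trpv1, the capsaicin receptor, was at 0.482, 0.512, 0.410 and 0.448 FPKM rostrally and at 0.375, 0.433, 0.441 and 0.379 FPKM at the epicenter (log2 fold change -0.18, adjusted p = 0.23).

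No central myelin gene passed among 19 tested, and the median was 0.04. Mbp was at 4521, 3941, 4609.8 and 4381 FPKM at the epicenter, a range that overlapped the rostral one, and its log2 differences were -0.088, 0.039, -0.039 and 0.034 in the 4 animals. The moderated SE of 0.38 was much larger than this spread. Without the trend in limma's variance, 1 gene of the list passed, Cldn11 (log2 fold change 0.25, adjusted p = 0.037), and 1 and 2 genes rose with quantile normalization and upper-quartile scaling. Mag and Mog, myelin proteins with smaller errors, had log2 fold changes of 0.14 (SE 0.07) and -0.12 (SE 0.05). Of 11 progenitor genes 4 rose, where 15.5% of all genes tested did, and 2 rose with any animal left out. The largest rise was that of Matn4 (log2 fold change 0.78), and Pdgfra (0.21) and Gpr17 (0.27) changed less. Of 19 endothelial genes 4 rose and 3 fell, near the 15.5% and 14.2% of all genes tested, and with 1 animal left out 1, 1, 1 and 4 rose and none fell. Eng and Angpt2, genes of growing vessels, had log2 fold changes of 0.77 and 0.68, and the blood-brain barrier lipid transporter Mfsd2a and Plvap, a protein of fenestrated vessels, fell by 0.31 and 0.45 on the log2 scale. Cldn5, the tight junction protein, did not pass (-0.12, adjusted p = 0.38). In the pericyte list only Anpep passed (log2 fold change 2.69), an aminopeptidase that myeloid cells also carry.

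Neuronal genes fell together, though by less than 2-fold in most. Of 20 genes for GABA and glycine transmission 17 fell (median -0.65), of 19 for glutamate transmission 15 (median -0.55), of 21 sodium and potassium channel genes 16 (median -0.53), and of 19 pan-neuronal genes 12 (median -0.61), where 14.2% of all genes tested fell. None of these lists held a gene that rose. With 1 animal left out, the inhibitory list had 10, 11, 14 and 12 members lower, the glutamate list 7, 9, 7 and 9, the channel list 7, 11, 9 and 13 and the pan-neuronal list 6, 8, 6 and 8. Snap25 fell from 571, 714, 613 and 549 to 359, 343, 432 and 353 FPKM (log2 fold change -0.72, SE 0.13, adjusted p = 0.018). Gad2, which makes GABA, fell from 16.8, 22.3, 17.3 and 15.998 to 7.97, 7.98, 9.92 and 8.55 FPKM (log2 fold change -1.06, SE 0.12, adjusted p = 0.007). The rostral value of control animal 2 was the highest for both, and neither overlapped between the regions. The vesicular transporters Slc17a6 for glutamate and Slc32a1 for GABA and glycine fell by 0.93 and 0.64 on the log2 scale, and the chloride exporter Slc12a5 by 0.61.

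Neurofilament genes did not follow. Nefh, the heavy neurofilament chain of large axons, was at 179, 179, 172 and 177 FPKM rostrally and at 189.9, 164, 192 and 162 FPKM at the epicenter (log2 fold change -0.00043, SE 0.08), and Nefm had a log2 fold change of -0.02 (SE 0.09). Both signs depended on the setting, and neither gene passed in any. Nefl and Tubb3, an axonal tubulin, did not pass either (-0.22 and -0.15). In the caudal cord Nefh was at 304, 284, 294 and 293 FPKM, above every library of the other cord regions. The median of 11 motor neuron genes was 0.31 at the epicenter and 1.02 caudally, each against the rostral cord. Chat, which makes acetylcholine, was at 6.39, 6.65, 5.09 and 4.86, 8.61, 6.11, 8.74 and 6.61 and 12.7, 10.7, 11.8 and 11.2 FPKM from rostral to caudal, and the step to the epicenter did not pass (adjusted p = 0.12). Calca, the gene of the peptide CGRP in motor and sensory neurons, did (log2 fold change 1.06, SE 0.11, adjusted p = 0.0064), with 20.3, 10.6, 13.4 and 17.2 FPKM rostrally and 41.8, 25.6, 31.9 and 27.4 FPKM at the epicenter. Chrna4, a nicotinic receptor subunit, was the 1 member of this list that fell (log2 fold change -0.70), while 4 rose, or 1, 4, 1 and 3 with 1 animal left out.

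Neuropeptide genes of the gray matter showed the largest falls of the lists, with 12 of 16 tested lower and a median of -0.93. Nts, neurotensin of dorsal horn neurons, was at 7.77, 10.9, 9.28 and 9.57 FPKM rostrally and at 3.02, 3.46, 3.805 and 3.39 FPKM at the epicenter (log2 fold change -1.45, SE 0.08, adjusted p = 0.0048), the largest fall among named genes at 5 FPKM or more. Tac1, the gene of substance P, was at 22.1, 28.4, 27.4 and 32.03 and 12.01, 14.1, 14.8 and 13.01 FPKM (log2 fold change -1.02, SE 0.09, adjusted p = 0.0048). Penk, Sst and Cartpt had log2 fold changes of -0.92, -0.90 and -1.13. Of 9 tested transcription factors of spinal interneurons 6 fell, among them Lmx1b (-1.27) and Lbx1 (-0.97) of the dorsal horn and Pax2 (-0.78) of inhibitory neurons. Tal1, which blood-forming and vascular cells also use, rose by 0.85. It was the 1 member that rose, and with 1 animal left out 0, 0, 0 and 1 did. The remaining genes with the largest falls at 5 FPKM or more were Synpr, Tpbg, Nppc, Fgf13, Calb1 and Vstm2l, at -1.09, -1.08, -1.07, -1.06, -1.05 and -1.05.

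Of the 6 genes that fell at least 4-fold, 4 are genes of monoamine and related brainstem neurons, a group noticed after the values were seen. Th, the first enzyme of catecholamine synthesis, was at 0.577, 1.97, 1.16 and 0.482 FPKM rostrally and at 0.1, 0.117, 0.1 and 0.1 FPKM at the epicenter. Dbh, which makes noradrenaline, was at 0.355, 2.47, 0.755 and 0.320 FPKM rostrally and at the floor in all epicenter and caudal libraries. Tph2, the first enzyme of serotonin synthesis in neurons, was at 0.332, 3.26, 0.725 and 0.183 FPKM rostrally and at 0.1, 0.190, 0.156 and 0.108 FPKM at the epicenter, and Prlh, a peptide gene of noradrenaline neurons of the medulla, at 1.02, 2.71, 2.101 and 0.677 and 0.219, 0.1, 0.1 and 0.1 FPKM. In all 4 the rostral library of control animal 2 was the highest and that of stimulated animal 1 the next. The other 2 genes, AABR07036649.2 and AABR07049892.1, have no name and overlapped between regions. The same library of control animal 2 stood above the others for Slc17a7, a glutamate transporter gene at 0.974, 11.8, 2.78 and 0.689 FPKM rostrally and 0.318, 0.464, 0.389 and 0.623 FPKM at the epicenter, and for the peptide genes Crh, at 0.517, 5.89, 1.75 and 0.364 FPKM rostrally, and Trh, at 2.22, 14.1, 4.54 and 2.53 FPKM, none of which passed. Slc18a2, the monoamine vesicle transporter, was at 2.48, 4.83, 3.17 and 2.54 and 2.53, 2.504, 2.304 and 2.33 FPKM and did not pass. How far toward the brainstem each rostral block reached is not given in the sources used here, and its part in the neuronal falls was not tested. Without control animal 2, the lists of inhibitory, excitatory and neuropeptide genes had medians of -0.55, -0.46 and -0.82, and 11, 9 and 12 of their members passed. This fit cannot test the reach of the blocks, since Th, Dbh and Prlh were higher rostrally in the remaining animals as well.

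Skeletal muscle genes had a median log2 fold change of -0.85 over 9 tested, but only Tnnc2 passed (log2 fold change -0.19), and with 1 animal left out 0, 1, 0 and 0 genes did. Their summed level ranged from 12.5 to 33.9 FPKM in the rostral libraries and from 9.77 to 15.3 FPKM at the epicenter, and their part in any other result was not tested.

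Genes of cholesterol synthesis fell in 16 of 22 tested, none rose, and the median was -0.36. Cells make these enzymes when sterol is scarce. Insig1, which holds the pathway in check and is itself induced by it, was at 38.7, 47.9, 40.2 and 39.4 FPKM rostrally and at 27.02, 28.9, 27.6 and 27.8 FPKM at the epicenter, without overlap (log2 fold change -0.57, SE 0.06, adjusted p = 0.0056). Hmgcs1 and Fdft1, enzymes of the pathway, had log2 fold changes of -0.49 and -0.55. In the fits with 1 animal left out 7, 10, 8 and 15 members passed. For the caudal cord against the rostral cord the median of the same genes was 0.06 and no member passed. Respiratory chain genes had a median of -0.28 and 2 of 21 passed, none with any animal left out, a count that rose to 19 with quantile normalization and 18 with upper-quartile scaling.

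Proliferation genes, low throughout, rose in 13 of 16 tested (median 0.93), and Ccne1, a cyclin gene, fell (log2 fold change -0.49). In the fits with 1 animal left out 8, 8, 7 and 13 rose and none fell. Mki67 went from a mean of 0.477 to 1.44 FPKM and Top2a from 0.596 to 2.07, with log2 fold changes of 1.58 and 1.76. Of 12 immediate early genes 2 rose and 2 fell, near the shares over all genes tested, and with 1 animal left out 0, 0, 0 and 3 rose and 1, 1, 0 and 2 fell. Fos and Junb rose by 0.62 and 0.88 on the log2 scale, and Arc and Npas4, which neurons switch on with activity, fell by 0.65 and 0.54. Of 14 genes linked to axon regeneration 4 rose and 4 fell, where 15.5% and 14.2% of all genes tested did. With 1 animal left out, 2, 1, 1 and 4 rose and 3, 3, 2 and 3 fell. Atf3, a stress-induced transcription factor, was at 1.29, 0.811, 1.01 and 0.888 FPKM rostrally and at 7.57, 5.56, 5.61 and 2.82 FPKM at the epicenter (log2 fold change 2.37, SE 0.20, adjusted p = 0.0048), whereas Gap43 and Basp1, proteins of growing nerve endings, fell by 0.41 and 0.40 and Bdnf, a neurotrophin gene, by 0.98. Sprr1a was at the floor in all 8 libraries.

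Hox genes, which keep a record of position along the body axis, differed between the regions in 15 of 22 tested, 5 higher and 10 lower, or 5, 3, 2 and 5 higher and 6, 6, 6 and 8 lower with 1 animal left out. Hoxc8 was at 0.650, 0.103, 0.1 and 0.1 FPKM rostrally, 8.13, 2.59, 5.59 and 2.002 FPKM at the epicenter and 20.3, 17.8, 19.05 and 16.4 FPKM caudally (log2 fold change 4.61, SE 0.35, adjusted p = 0.0048). Hoxb9, Hoxa7, Hoxd8 and Hoxc6 also rose, by 2.80, 1.08, 1.05 and 0.76 on the log2 scale. The 10 that fell were of paralog groups 2 to 6, so group 6 held both Hoxc6, which rose, and Hoxb6, which fell by 0.66. Hoxb7 and Hoxb8 did not pass and had log2 fold changes of -0.27 and -0.44, opposite in sign to the other genes of groups 7 and 8. Hoxb5 was at 7.41, 12.1, 9.04 and 6.71 FPKM rostrally and at 2.88, 3.79, 4.2002 and 3.79 FPKM at the epicenter (log2 fold change -1.24, SE 0.15, adjusted p = 0.0075), and Hoxc4 and Hoxa5 fell by 0.90 and 0.88. At the epicenter control animal 1 and stimulated animal 1 were above the other pair for Hoxc8. Lesion and cord level therefore moved together in this comparison, and their parts cannot be told apart.

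**Figure D4:**
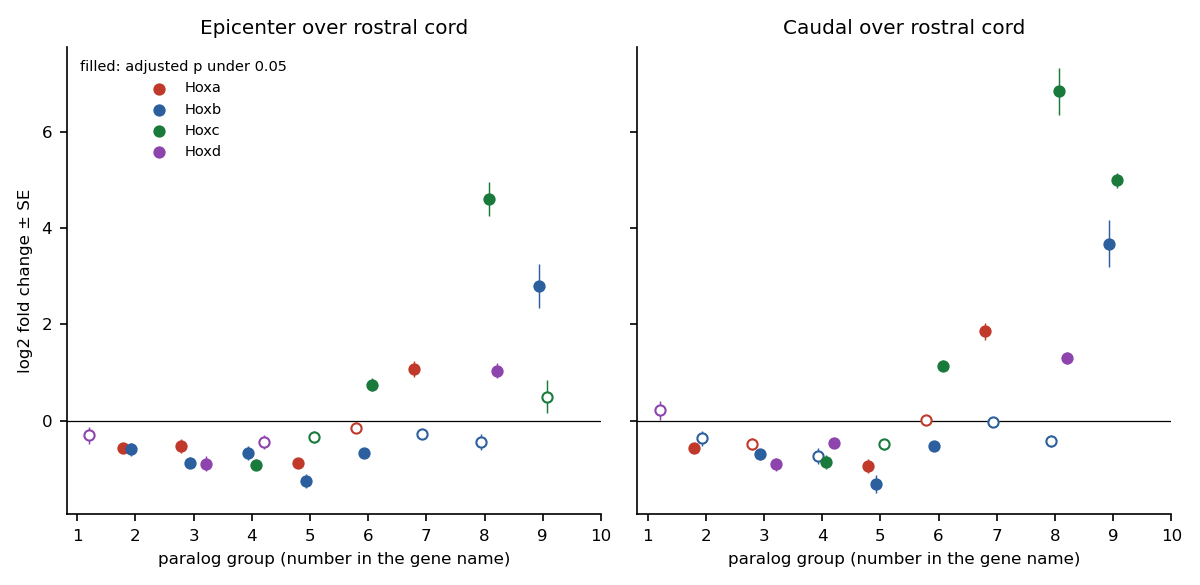
Log2 fold change with its standard error (y axis) of 22 Hox genes against the rostral cord, by paralog group (x axis), for the lesion epicenter (left) and the caudal cord (right), colored by cluster, with filled points past an adjusted p of 0.05. Genes of paralog groups 2 to 5 lie below 0 in both panels, and Hoxc8 has the largest value in both, 4.61 and 6.83.

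The caudal cord, taken from the same animals and compared with the same rostral libraries, differed from the rostral cord in 1953 genes (12.8%), 1667 higher (11%) and 286 lower (1.88%). Leaving out 1 animal took this count to 554, 0, 2 and 0 for control animals 1 and 2 and stimulated animals 1 and 2. These values share the rostral libraries with those above and are given side by side. For phagocyte genes the median log2 fold change was 1.70 at the epicenter and 1.05 caudally, for complement genes 1.39 and 0.85, for reactive astrocyte genes 0.92 and 1.26, for Schwann cell genes 1.23 and 1.30, and for collagen genes 0.64 and 0.79. For inhibitory transmission genes it was -0.65 and -0.26, for pan-neuronal genes -0.61 and -0.13, and for neuropeptide genes -0.93 and -0.67. Set directly against the caudal cord, the epicenter had 0 genes past the threshold in limma with the animal as a block, though 3878 had an unadjusted p under 0.05 and 966 passed without the block. Gpnmb was at 78.7, 80.5, 78.02 and 122 FPKM caudally and Cd68 at 5.75, 5.84, 7.11 and 11.6 FPKM. In both genes stimulated animal 2, lowest at the epicenter, was the highest of the 4 caudal libraries, and its epicenter and caudal values lay close together.

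Stimulation was compared through the difference between epicenter and rostral cord within each animal, 2 stimulated against 2 control animals. No gene passed in limma, 637 had an unadjusted p under 0.05, and the smallest p among genes at 5 FPKM or more were those of Bcl2a1, RGD1559972 and Cycs. Bcl2a1, a survival gene of myeloid cells, was at 2.54, 1.42, 2.896 and 2.24 FPKM rostrally and at 20.6, 13.6, 10.9 and 5.75 FPKM at the epicenter, and the log2 difference of the stimulated minus the control animals was -1.51 (SE 0.25, adjusted p = 0.93). In 17 of the 25 phagocyte genes both control differences were above both stimulated ones, a position held by 8.54% of all genes tested. The median differences over that list were 1.93 and 2.09 in the control animals and 1.70 and 1.23 in the stimulated animals. For Schwann cell genes they were 1.32 and 2.01 against 1.14 and 0.34, and for collagen genes 0.71 and 0.93 against 0.77 and 0.15. In each of these lists stimulated animal 2 was the lowest. In 16 of 21 channel genes and 14 of 20 inhibitory transmission genes both stimulated differences were above both control ones, where 23.6% of all genes tested were. With 2 animals in each arm, stimulation and the animals themselves cannot be told apart here.

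**Figure D5:**
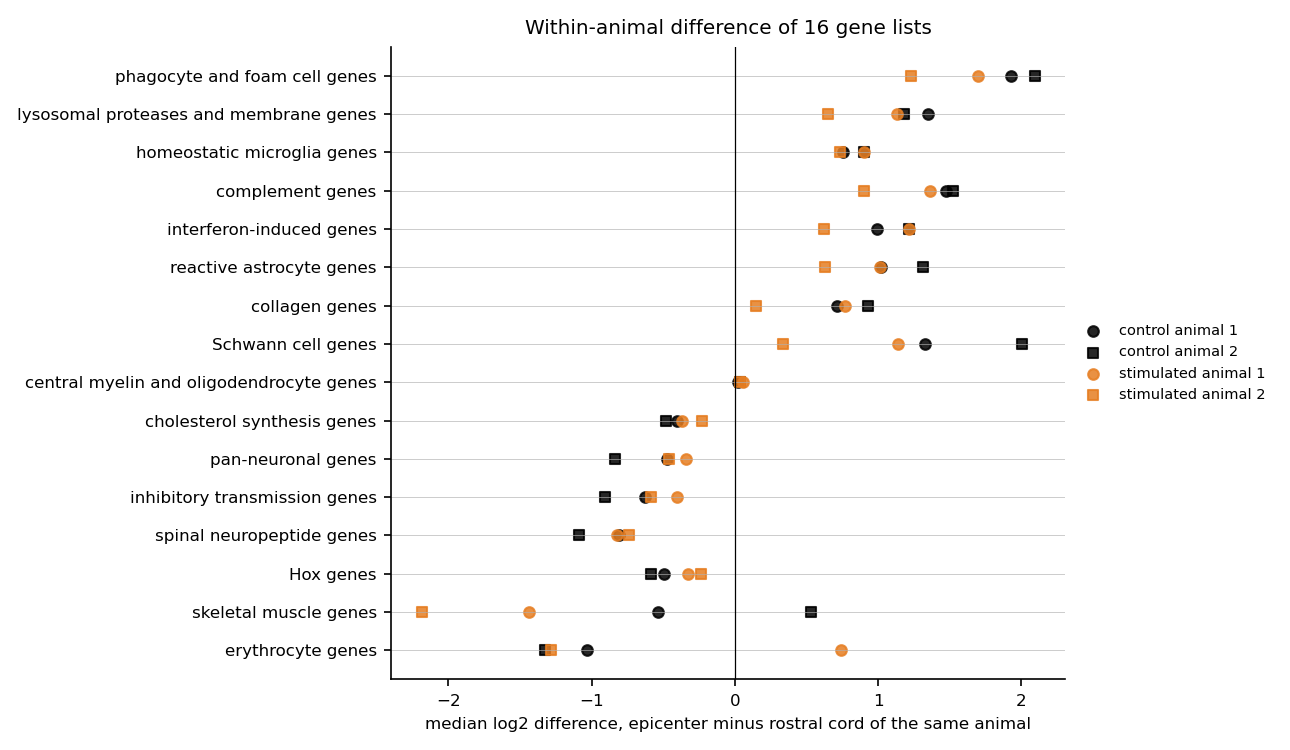
Median over the tested members of 16 gene lists (y axis) of the log2 FPKM difference between lesion epicenter and rostral cord of the same animal (x axis), with black for control, orange for stimulated, circles for animal 1 and squares for animal 2 of each group. Phagocyte genes range from 1.23 in stimulated animal 2 to 2.09 in control animal 2, and central myelin genes lie within 0.02 to 0.06 in all 4 animals.

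Long non-coding RNAs were tested beside the protein-coding genes, and 279 of 1285 (21.7%) passed, against 4233 of 13925 (30.4%). The unnamed RNA LOC102554575, chosen after its values were seen, was at 0.585, 0.345, 0.418 and 0.372 FPKM rostrally and at 3.14, 2.23, 2.07 and 1.27 FPKM at the epicenter (log2 fold change 2.30, SE 0.17, adjusted p = 0.0048), and AABR07027407.1 fell from 21.1, 36.1, 26.4 and 23.2 to 11.4, 10.4, 16.8 and 11.2 FPKM (log2 fold change -1.09, SE 0.19, adjusted p = 0.016). Neither overlapped between the regions. The strand used in counting is not given in the sources used here, so reads of overlapping genes on the opposite strand may be included.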

How the data were processed

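RNA was sequenced from 5 regions of 4 rats, and the 8 libraries of rostral cord and lesion epicenter were analysed here. Per the submitters' processing notes, reads were handled with TopHat2 2.1.0 and Cufflinks 2.2.1, and the paper's methods name the rat build Rnor6. The authors deposited FPKM values per gene, with the lowest value at 0.1. The paper lists the number of reads of each library. The FPKM values carry no read numbers per gene, so the reads behind each value are unknown and precision rests on how far the 4 animals differ.

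From these values, log2 FPKM was taken (floor 0.1), genes with at least 1 FPKM in any of the 20 libraries were kept, and limma 3.58.1 in R 4.3.3 (lmFit, eBayes with trend) was fitted to the 8 libraries with the animal as a block. The block pairs libraries of the same animal, whose deviations from the region means correlated at 0.136 to 0.255. Stimulation was tested with limma on the within-animal differences of 2 against 2 animals. The 15210 p-values of each fit were corrected after Benjamini and Hochberg, with a threshold of 0.05. The model was also run on simulated data, but the outcome is not given here and is not used as support. Single values over libraries used an exact swap test within animals. Of entries sharing a symbol, the most abundant was taken.

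Members, gene lists (39 lists, 628 genes tested of 724) and tests were chosen with earlier results of these data known. Genes named were the 10 largest rises and falls in the same direction in 4 animals that reached a mean of 5 FPKM in a region and have a gene name, the genes the study names, up to 3 of the most changed and the 2 most abundant members of each list, the 3 smallest p for stimulation, and further list members whose role is described. Some genes that met this rule are not reported here. Promoters came from RefSeq (GRCr8), whose build differs from that of the table, so no positions of the table's genes are given. Alternatives were other floors, filters and scalings, no block, a fit of all 20 libraries, each group alone and each animal left out. Analyses used Python 3.11.15, numpy 2.4.6, pandas 2.3.3 and matplotlib 3.10.9. Library columns without a sample numbered 0.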

Additional observations from a re-analysis of the deposited data

Results flagged for a closer look

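In 30 genes whose values are given library by library, the rostral and the epicenter group were each searched for a library far from the other 3, by Dixon's test at the 95% level. Of 60 groups, 5 held such a library, and chance gives about 1 in 20 groups. In the rostral cord, control animal 1 was at 0.65 FPKM for Hoxc8 against 0.1 to 0.103 in the others, and at 0.137 FPKM for Cd8b against 0.1 to 0.106. For Insig1, the rostral library of control animal 2 was at 47.9 FPKM against 38.7 to 40.2. At the epicenter, stimulated animal 1 was at 61.9 FPKM for Hbb against 5.53 to 10.4, and stimulated animal 2 was at 58.0 FPKM for Pmp22 against 79.2 to 82.5.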

How the results depend on the processing

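All 216 named genes past the threshold for epicenter against rostral cord showed no reversed sign in any setting in which they were fitted (4 of them, Ccl7, Egr2, Lhx2 and Npas4, were at 0 with a floor of 1 FPKM), but calls were lost and the counts moved. The total of 4512 genes (2351 higher, 2161 lower) ranged from 2027 to 3388 with 1 animal left out (1036 to 2097 higher, 719 to 1291 lower). It was 1135 (894 and 241) in the control animals alone, 0 in the stimulated animals alone, where 3397 had an unadjusted p under 0.05, 1323 (953 and 370) without the filter, 2984 (1031 higher) in all 20 libraries without the block, and included 1337 higher genes in all 20 libraries with the block. Quantile normalization gave 3589 lower genes. Without the replicate block it was 4323, within 1.5 times. The median over all genes was -0.02, -0.04 with quantile normalization and 0.02 with upper-quartile scaling.

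Epicenter against caudal cord gave 0 to 1 gene with an animal left out (0 higher, 0 to 1 lower), 1 gene, lower, with log2(FPKM + 1), 215 (84 higher, 131 lower) with upper-quartile scaling, and 966 (92 and 874) without the block. Caudal against rostral cord gave 0 to 554 genes with an animal left out (0 to 489 higher, 0 to 65 lower), 0 without the filter, 3323 (2692 and 631) without the block, 4318 (2078 lower) with quantile normalization and 4511 (2066 lower) with upper-quartile scaling. Stimulation gave 0 genes in every setting, with 410 to 1633 at an unadjusted p under 0.05, and 0 with the replicate number as a block. Control and stimulated animals with the same number are different animals, and their differences correlated at 0.0526. The causes of these changes were not tested.

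Signs turned only in genes that did not pass. With quantile normalization, Cst3 was at -0.11. In the control animals alone, Tyms was at -0.030, Cldn5 at 0.0046 and RGD1559972 at 0.0022. In the stimulated animals alone, Rgs5 was at -0.036, S100a8 at 0.28, Nefh at 0.019 and Nefm at 0.0011. With upper-quartile scaling, Nefh was at 0.040, Nefm at 0.021 and Mbp at 0.027. With 1 animal left out, Tagln ranged from -0.021 to 0.13, Mbp from -0.031 to 0.011, Nefh from -0.055 to 0.042 and Nefm from -0.10 to 0.052. With 4 animals and no read numbers per gene, small changes of low genes could not be resolved.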
